A study of Drosophila melanogaster with 3 samples.

Results

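Respiratory complex I was described here through the nuclear genes whose symbols begin with ND-, the prefix that Drosophila gene naming uses for NADH dehydrogenase subunits. Of 13945 protein-coding genes on 6 chromosome arms, 40 carried the prefix, and 33 of these 40 had a Pdp1 peak summit within 1 kb of a transcription start site (TSS). The genes were picked by symbol alone, but as a group they were chosen on the strength of the Pdp1 peaks at their starts, namely the signal in the retained list and in the 3 replicate lists. Peak presence, peak signal and peak position at these genes are therefore given as a description, with no test.

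The peaks came from ChIP-seq of whole Drosophila melanogaster embryos aged 0 to 24 h, males and females pooled. The embryos came from a transgenic line, Pdp1-GFP, that stably makes Pdp1 with a GFP tag at its C-terminus, and chromatin sheared by sonication to 200 to 800 bp was precipitated with an antibody to GFP. All 3 biological replicates had this genotype, stage and treatment, so the series held 1 group and no contrast between conditions. Pdp1 belongs to the PAR bZIP family of DNA-binding proteins and is known in flies for its part in the circadian clock, in growth and in muscle. In whole embryos, more cells with Pdp1 at a gene and more Pdp1 at that gene per cell cannot be told apart.

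Complex I is the largest enzyme of the mitochondrial electron transport chain. It takes electrons from NADH through a flavin and a chain of iron-sulfur clusters to ubiquinone, and pumps protons across the inner membrane as it does so. Its matrix arm holds the N module, where NADH is oxidised, and the Q module, where ubiquinone is reduced, while its membrane arm holds the proton pumps, which the mitochondrial genome encodes. Nuclear genes supply the core subunits of the matrix arm and a large set of accessory subunits, which assemble around the core and stabilise it. The flight and body wall muscles and the nervous system of flies depend heavily on this enzyme.

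The DNA under the peaks is shown first, because searched 8-letter words lay close to most of the summits. The PAR bZIP site itself, TTACGTAA or TTACATAA, lay at 13 of the 33, against 617 of all 6148 bound genes. A wider form that includes this site lay at 22 of the 33, against 28.8% of all bound genes. With a mixed word, chosen after these sequences were seen, the count was 27, against 31.5% of all bound genes. The sequences are from the Release 6 genome (dm6), read on the strand of the gene. The long windows are centred on the strongest summit of the gene. The shorter runs are centred on a word within 50 bp of that summit, and most of them do not reach the summit itself. Capitals mark a searched word. The first set holds genes whose word lay in the first intron, a short way past the end of the first exon:
ND-23, chr3R:15836864-15836964, minus strand: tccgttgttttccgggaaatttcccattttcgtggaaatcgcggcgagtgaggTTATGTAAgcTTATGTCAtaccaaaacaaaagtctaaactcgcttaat
ND-49, chr4:570549-570649, minus strand: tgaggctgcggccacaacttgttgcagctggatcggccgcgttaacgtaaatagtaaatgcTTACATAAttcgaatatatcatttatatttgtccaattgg
ND-39, chr3L:20495491-20495591, plus strand: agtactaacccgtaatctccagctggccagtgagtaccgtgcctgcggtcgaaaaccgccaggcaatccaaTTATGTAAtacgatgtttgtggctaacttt
ND-13A, chr2L:5099940-5100040, minus strand: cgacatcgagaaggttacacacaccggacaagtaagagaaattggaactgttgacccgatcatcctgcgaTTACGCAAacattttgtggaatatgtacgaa
ND-13B, chr3L:10693859-10693959, minus strand: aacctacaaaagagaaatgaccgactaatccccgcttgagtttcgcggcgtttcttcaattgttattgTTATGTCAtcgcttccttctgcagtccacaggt
ND-B14.5B, chr2L:3145471-3145571, minus strand: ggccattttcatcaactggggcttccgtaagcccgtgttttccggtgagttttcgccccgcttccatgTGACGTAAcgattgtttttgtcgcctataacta
ND-B17, chr2L:15750673-15750773, minus strand: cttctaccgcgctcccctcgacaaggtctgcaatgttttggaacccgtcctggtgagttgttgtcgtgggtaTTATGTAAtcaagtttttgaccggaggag
ND-B17.2, chr2L:2579819-2579919, minus strand: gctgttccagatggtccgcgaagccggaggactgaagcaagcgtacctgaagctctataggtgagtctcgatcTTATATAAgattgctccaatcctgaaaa
ND-B22, chr2L:13370778-13370878, minus strand: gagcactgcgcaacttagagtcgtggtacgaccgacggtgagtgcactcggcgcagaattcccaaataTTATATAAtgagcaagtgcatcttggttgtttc
ND-SGDH, chr3L:12138239-12138339, minus strand: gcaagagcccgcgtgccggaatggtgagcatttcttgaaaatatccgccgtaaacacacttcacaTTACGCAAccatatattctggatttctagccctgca
ND-PDSW, chr2L:3466475-3466575, plus strand: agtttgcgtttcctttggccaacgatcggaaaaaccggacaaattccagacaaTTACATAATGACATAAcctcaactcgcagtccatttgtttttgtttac

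A further set shows genes with the word in the first exon, just upstream of the TSS or at the very start of the first intron, as shorter runs around the word, since these stretches fall in or beside untranslated sequence:
ND-75, chrX:8251431-8251460, minus strand: taccaaaacacTTATGTAAtttttattggc
ND-30, chr3L:3159512-3159541, minus strand: acattttagcaTTACATAAattgtcaaaaa
ND-18, chrX:19492468-19492497, plus strand: tgttccaaattTTACGTAAttcgtattttg
ND-ACP, chr3L:1330014-1330043, plus strand: ctccagcacttTTACATAAtcttgaaaact
ND-15, chr2L:155524-155553, plus strand: cttgtttattgTTACGTCAcagtgtgtgtg
ND-B16.6, chrX:6350332-6350361, minus strand: ctgccttggtgTTATGCAAaaaacgtcatt
ND-B18, chrX:15063969-15063998, plus strand: agaaaaacaatTTACGTAAtttaattgagc
ND-MNLL, chrX:7893573-7893602, minus strand: actcgtttttaTTACGTAAtgcggcaaaat

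The last is a core gene with none of the searched words in its window, shown for contrast:
ND-51, chr2L:6062532-6062632, minus strand: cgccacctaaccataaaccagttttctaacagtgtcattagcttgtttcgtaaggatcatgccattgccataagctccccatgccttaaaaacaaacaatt

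At ND-23 the PAR bZIP word TTATGTAA and the related word TTATGTCA were separated by a dinucleotide, and at ND-PDSW the words TTACATAA and TGACATAA stood directly end to end. No other bound complex I gene had words of both kinds in its window.

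Pdp1 peaks lay at the starts of all 7 core subunit genes and of nearly all accessory subunit genes, and at none of the duplicated gene copies. By module, 3 of 3 N module core genes, 4 of 4 Q module core genes, 8 of 8 matrix arm accessory genes, 7 of 7 proximal membrane arm accessory genes and 9 of 10 distal membrane arm accessory genes were bound. The acyl carrier gene ND-ACP and the gene ND-MLRQ, whose mammalian counterpart is now counted with complex IV, were bound as well. Of the 6 paralogues, which are genes named as a copy by a final L, 0 were bound. The 40 genes thus gave 82.5% bound, against a background of 44.1% of all protein-coding genes.

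The peaks were also among the strongest of the list. Signal is the authors' own value for each peak and was compared only inside 1 list at a time. Over the 33 bound genes the strongest summit had a median signal of 1427, with a lowest of 298 and a highest of 2838, against a median of 331 over the 13583 summits of the optimal list, the list that the authors retained after comparing replicates. Of the 40 genes, 32 had a summit in the strongest 10% of the list (80.0%), against a background of 9.26% of protein-coding genes. Their ranks ran between 117 and 1357, and the median rank of all 33 was 597, against 4349.5 over all 6148 bound genes. ND-B8, a small accessory subunit of the matrix arm, stood apart at rank 7714 with the signal of 298. The next lowest signal was 924, at ND-24.

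**Figure D1:**
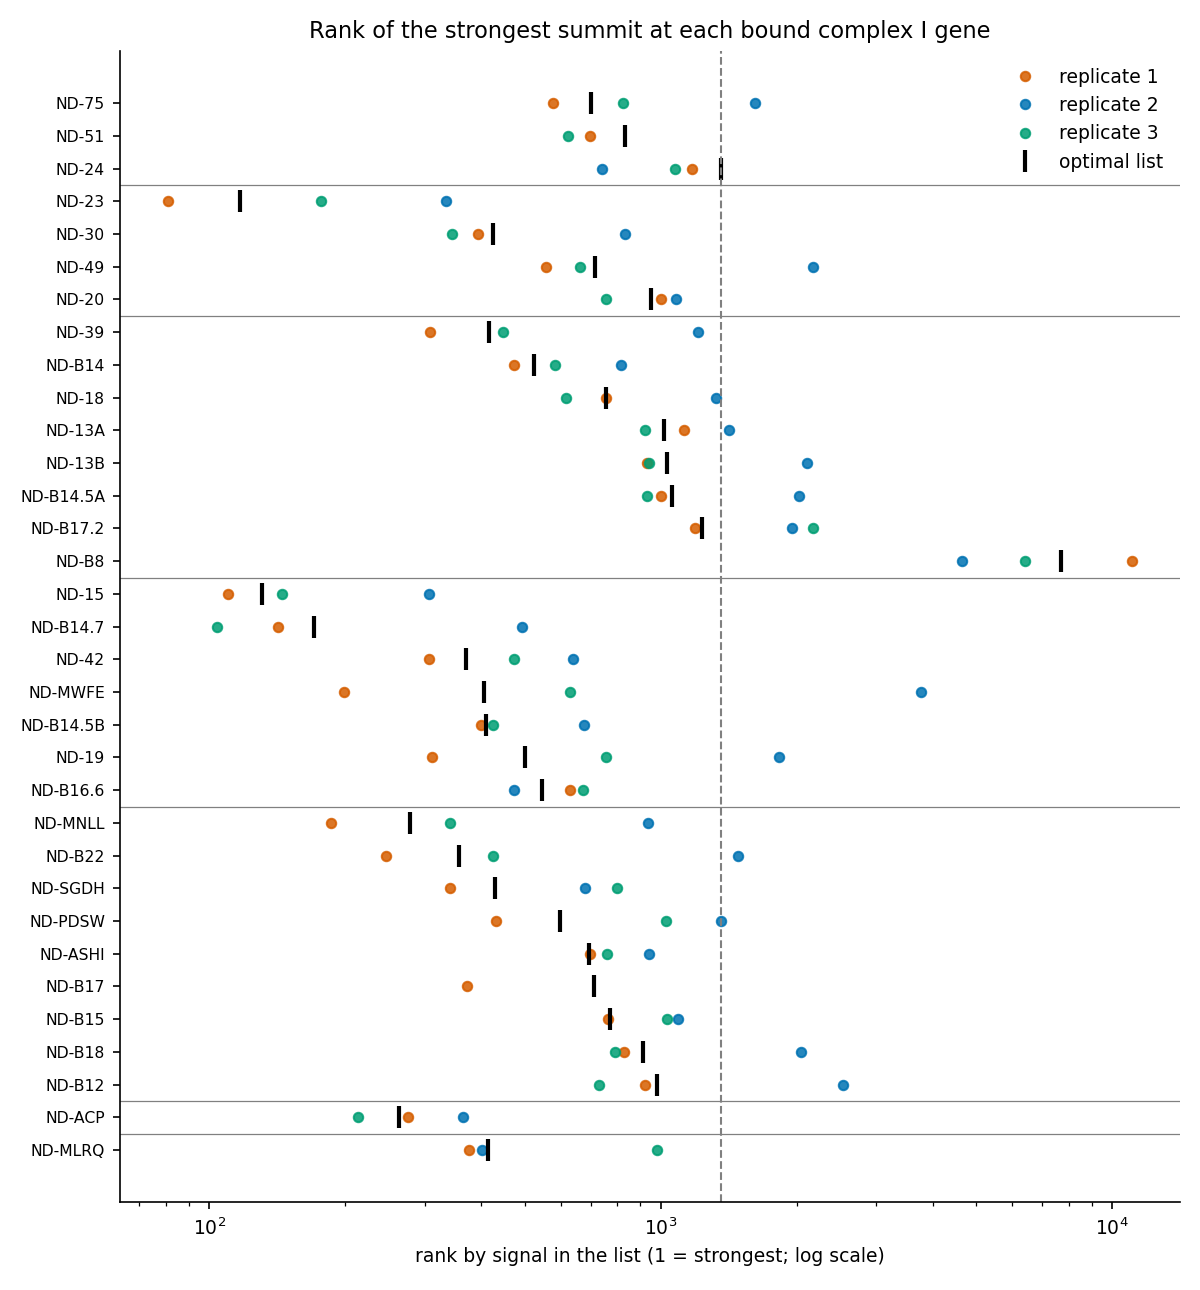
Rank by signal of the strongest summit at each of the 33 bound complex I genes (log axis, 1 is the strongest), in the optimal list (black bars) and in replicates 1, 2 and 3 (coloured points). Horizontal lines part the groups in the order N module core, Q module core, matrix arm, proximal and distal membrane arm, acyl carrier and ND-MLRQ, and the dashed line marks rank 1358, the end of the strongest 10% of the optimal list. ND-B8 alone lies beyond it in the optimal list, and the points of replicate 2 lie farthest to the right for 25 genes.

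Most of the genes also had a peak in each replicate list. A gene was taken as found in a replicate when a summit lay within 200 bp of its strongest optimal summit among the 13583 strongest lines of that replicate. By this measure 31 of the 40 genes were found in all 3 replicates (77.5%), against a background of 33.2% of protein-coding genes. Counted afresh from each replicate list, the genes with a summit within 1 kb of a TSS numbered 33, 34 and 33 in replicates 1, 2 and 3, against backgrounds of 42.1%, 47.5% and 48.3% of protein-coding genes. Over the replicates this was 83.3% ± 1.44 of the complex I genes and 46.0% ± 3.37 of protein-coding genes (SD, n = 3 each). Depth was unknown, since the lists carry no read counts.

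The matched summits had median ranks of 474, 1089 and 701 in replicates 1, 2 and 3. Among the 31 genes found in every replicate, the best rank came from replicate 1 for 19, from replicate 2 for 3 and from replicate 3 for 9, and replicate 2 gave the worst rank for 25. Ranking of the genes among themselves was closest between replicates 1 and 3 (Spearman rho of signal 0.77, 32 genes) and looser between replicates 1 and 2 (0.52, 31 genes) and between 2 and 3 (0.49, 31 genes). These coefficients are across genes, which are not independent replicates, and are a description. A matched summit lay within the strongest 1358 lines for 32 of 33 genes in replicate 1, for 18 of 31 in replicate 2 and for 30 of 32 in replicate 3. For these genes the share of top peaks was thus lower in replicate 2. The share of all bound genes within the same cut is not given here. Over all bound genes the median ranks were 5131.5, 3850.5 and 4061.5, so by the median replicate 2 did not give poorer ranks in general.

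The N module core genes encode the entry point for electrons. ND-51, which in mammals binds NADH and the flavin, had an optimal signal of 1208 (rank 832), with replicate signals of 806 and 232 (ranks 698 and 624) in replicates 1 and 3. In replicate 2 its nearest summit lay 226 bp away, beyond the matching distance, with a signal of 299 and rank 1027. ND-51 was thus missing from the count in all 3 replicates, although replicate 2 had a summit within 1 kb of its TSS. The gene had 2 optimal summits in that range, and the weaker lay 24 bp from a TSS. Which of them the line of replicate 2 belonged to was not tested. ND-24, the small iron-sulfur subunit of this module, had an optimal signal of 924 and replicate signals of 624, 355 and 177 (ranks 1170, 742 and 1076). ND-75, the large subunit that carries iron-sulfur clusters on towards the Q module, had an optimal signal of 1315 and replicate signals of 875, 230 and 203 (ranks 578, 1617 and 824). ND-24 was the core gene with the lowest optimal signal, yet in replicate 2 it ranked ahead of ND-75.

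The Q module core genes covered a wider span, with the highest signal of all 40 genes at ND-23. ND-23, which carries iron-sulfur clusters, had an optimal signal of 2838 and replicate signals of 1910, 523 and 408 (ranks 81, 335 and 177). ND-30, a hydrophilic subunit of this module, had an optimal signal of 1672 and replicate signals of 1041, 334 and 311 (ranks 394, 833 and 344). These were the core genes ranked highest in the optimal list, and both ranked better than 1358 in every replicate. ND-49, which lines the ubiquinone site, had an optimal signal of 1302 and replicate signals of 887, 194 and 226 (ranks 556, 2177 and 662). ND-20, which holds the last cluster before ubiquinone, had an optimal signal of 1131 and replicate signals of 668, 292 and 212 (ranks 1001, 1080 and 755). The matched lines put ND-49 behind ND-20 in replicate 2 alone. A stronger line of replicate 2, beyond the 200 bp of the match but within 1 kb of the ND-49 TSS, had rank 1025.

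The other high signals belonged to accessory genes of the membrane arm and to the acyl carrier. ND-15, a subunit on the intermembrane face in mammals, had an optimal signal of 2677 and replicate signals of 1701, 545 and 438 (ranks 110, 307 and 145). ND-B14.7, at the base of the membrane arm in mammals, had an optimal signal of 2500 and replicate signals of 1582, 430 and 492 (ranks 142, 494 and 104). ND-ACP, the acyl carrier protein that also serves fatty acid synthesis in mitochondria, had an optimal signal of 2091 and replicate signals of 1219, 501 and 373 (ranks 275, 365 and 213). These genes ranked within the first 500 lines of every replicate. ND-MNLL, a small distal arm subunit, had an optimal signal of 2039 and replicate signals of 1412, 315 and 311 (ranks 186, 938 and 342). ND-B22, which in mammals binds an acyl carrier in the distal arm, had an optimal signal of 1801 and replicate signals of 1276, 243 and 284 (ranks 246, 1486 and 424). Both were ranked lowest in replicate 2.

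The spread of rank over replicates differed widely between genes. ND-ASHI, a distal arm subunit, had the most even ranks, at 696, 942 and 762, an SD of 0.067 in log10 rank. ND-MWFE, a membrane subunit needed for assembly in mammals, had the least even ranks, at 199, 3771 and 631, an SD of 0.644. Its signals were 1377, 136 and 231 in replicates 1, 2 and 3, and the matched line of replicate 2 lay 93 bp past the TSS, where the optimal summit lay 235 bp past it. The strongest line of replicate 2 within 1 kb of this TSS had rank 660, so the uneven rank of ND-MWFE depended on the 200 bp match. ND-B17, a distal arm subunit, matched in replicate 1 alone (signal 1054, rank 372), with the nearest summits of replicates 2 and 3 lying 297 and 293 bp away. ND-B8 had signals of 126, 116 and 58.9 (ranks 11033, 4640 and 6403), low in every replicate.

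The remaining bound genes filled the range in between. In the matrix arm, ND-39, ND-B14, ND-18, ND-13A, ND-13B, ND-B14.5A and ND-B17.2 had optimal signals between 969 at ND-B17.2 and 1684 at ND-39. In the proximal membrane arm, ND-42, ND-B14.5B, ND-19 and ND-B16.6 had signals between 1515 at ND-B16.6 and 1779 at ND-42. In the distal membrane arm, ND-SGDH, ND-PDSW, ND-B15, ND-B18 and ND-B12 had signals between 1102 at ND-B12 and 1670 at ND-SGDH. ND-MLRQ had an optimal signal of 1687, with replicate signals of 1051, 474 and 186. The median rank by group was 405 for the proximal arm, 570 for the Q module, 695 for the distal arm, 832 for the N module and 1025 for the matrix arm accessory genes.

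Among the 7 unbound genes, 6 were the paralogues. The duplicates of ND-20, ND-51, ND-49, ND-24 and ND-B14.5A share much of their protein sequence with the parent gene, and several such copies in flies are known for expression in testis. The nearest optimal summit was 2740 bp away for ND-20L, 4443 bp for ND-51L1, 7176 bp for ND-51L2, 37815 bp for ND-49L, 57916 bp for ND-B14.5AL and 66336 bp for ND-24L. Each parent gene carried a peak, while the copy had none even in the pooled list of 30000 lines. The one replicate line within 1 kb of a paralogue TSS was at ND-20L in replicate 1, at rank 26796. ND-AGGG, a distal arm subunit, was the one unbound gene without the copy suffix, with its nearest optimal summit 144522 bp away. In replicate 2 a line at rank 9503 lay within 1 kb of its TSS, and none in the other replicates, which accounts for the count of 34 there.

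The 1 kb limit did not fall close to any of these genes. The bound gene with its strongest summit nearest to the limit was ND-PDSW, at 368 bp, and the unbound gene nearest to it was ND-20L, at 2740 bp. ND-PDSW had replicate signals of 992, 257 and 182 (ranks 432, 1359 and 1027).

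**Figure D2:**
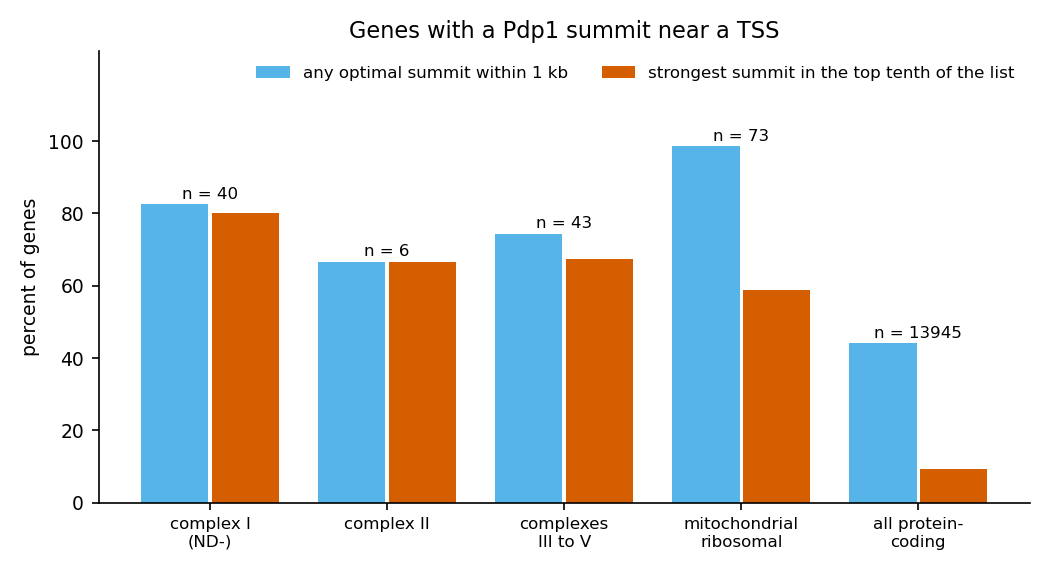
Percent of genes that have at least 1 summit of the optimal list within 1 kb of their start (blue) and with their strongest summit in the strongest 10% of the list (orange), for complex I, the other respiratory complexes, mitochondrial ribosomal proteins and all protein-coding genes, with the number of genes above each pair. Complex I has 82.5% and 80.0%, and all protein-coding genes have 44.1% and 9.26%.

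Genes of other mitochondrial complexes were set beside complex I from lists drawn up by symbol. For complexes III to V, 32 of 43 genes were bound and 29 ranked in the strongest 10%, with a median rank of 284.5. For complex II, or succinate dehydrogenase, the count was 4 of 6, all 4 in the strongest 10%. For mitochondrial ribosomal proteins 72 of 73 were bound and 43 of these ranked in the strongest 10%, with a median rank of 990. Complex I was thus not alone in the strength of its peaks, and no difference between these lists was tested.

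Other genes of complex I, which lack the ND- prefix, showed a mixed pattern. Of 9 symbols sought, 5 were matched, and 3 of these 5 were bound. CIA30, an assembly factor of the complex, had a higher signal in the optimal list than any ND- gene, 3275 at rank 78, at a summit upstream of its TSS that also lay within 1 kb of the start of CG7601. Its ranks in the replicates were 198, 27 and 117, behind ND-23, ND-15, ND-B14.7 and ND-MNLL in replicate 1 and behind ND-B14.7 in replicate 3. NP15.6, a distal arm subunit, had a signal of 911 (rank 1404) at a summit 579 bp past its TSS, which also lay within 1 kb of the starts of GatA and P5cr. The assembly factor gene sicily had a signal of 443 (rank 4636). The assembly factor genes ECSIT and Nubpl were unbound, with the nearest optimal summits 5610 and 7905 bp away.

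The summits at complex I genes mostly lay downstream of the nearest TSS of their gene. This held for 29 of 33 genes (87.9%), with a median position 191 bp past the TSS and quartiles of 63 and 209 bp. Over all bound genes 31.7% of strongest summits lay downstream, with a median 81 bp before the TSS. Some of those summits lay nearer to the start of another gene, so the same was taken over genes whose own TSS was the nearest (ties included). There the figures were 28 of 32 complex I genes (87.5%, median 189 bp downstream), against 40.6% of 4506 bound genes and 50.0% of the 910 such genes in the strongest 10%. The median position was 199, 171 and 183.5 bp in replicates 1, 2 and 3, or 184.5 ± 14 bp (SD, n = 3), against 76.5, 90 and 79 bp upstream over all bound genes. These replicate summits were matched within 200 bp of the optimal summit, so their medians are tied to it and the SD is no independent measure of spread. Summits upstream of the nearest TSS were seen at ND-75, ND-B12, ND-MNLL and ND-B8, at most 80 bp away. ND-75, ND-B12 and ND-MNLL had a further TSS upstream of the summit, which thus still lay inside the gene. At ND-B8 the summit lay outside the gene.

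**Figure D3:**
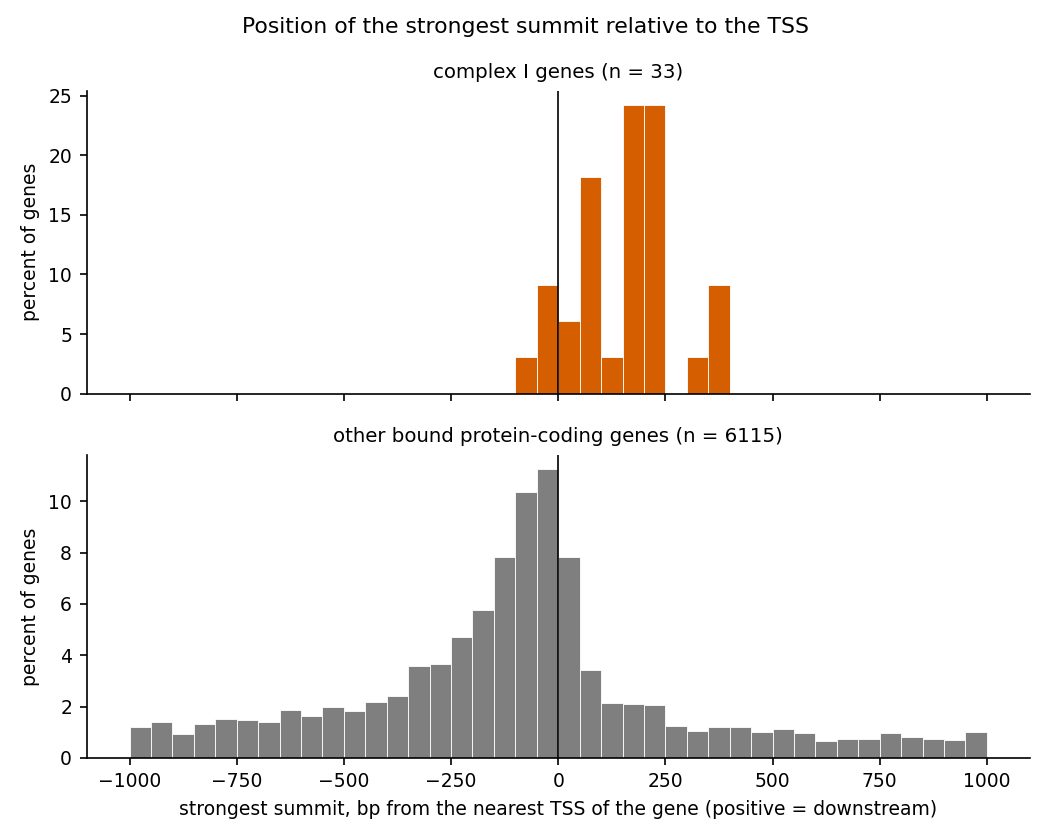
Histogram of the position of the strongest optimal summit relative to the nearest TSS of its gene (bp, positive is downstream, bins of 50 bp), as percent of genes, for 33 complex I genes (top) and the other 6115 bound genes (bottom). The complex I summits lie within 368 bp of the TSS, mostly downstream, while the other genes centre just upstream.

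Many of the summits lay close to the end of the first exon. Of the 33 summits, 15 lay in a first intron (45.5%) and 13 in a first exon (39.4%), against 10.7% and 17.4% over all bound genes. A summit upstream of its nearest TSS could count as neither, and upstream were 4 of the 33 and 4178 of the 6148. Over all bound genes 1071 summits were in a first exon and 660 in a first intron. Among genes of the strongest 10% whose own TSS was the nearest, the shares were 20.9% in a first intron and 26.7% in a first exon. The 15 intronic summits were 5 to 109 bp past the first exon, with a median of 22 bp, against a median of 156 bp over the 660 bound genes with a first-intron summit. At ND-49 and ND-B14 the summit was 5 bp past the exon, and at ND-B17 it was 1 bp before its end. The summits of complexes III to V had a like position, with a median of 188.5 bp past the TSS and 43.8% in a first intron, whereas those of mitochondrial ribosomal protein genes had a median of 29.5 bp and 5.56% in a first intron. These differences were not tested.

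The words at the summits were counted on both strands, with the whole word within 50 bp of the strongest summit. The PAR bZIP site was searched as TTACGTAA and TTACATAA, and TTACATAA reads TTATGTAA on the opposite strand. At least one of them was present at 13 of 33 genes (39.4%), against 617 of all 6148 bound genes, 19.1% of bound genes in the strongest 10% and 17 of 32 genes of complexes III to V (53.1%). In equally wide windows 300 bp to either side the share was 1.52% for complex I genes and 0.642% for all bound genes. The site was found at the core genes ND-23, ND-30, ND-49 and ND-75, and not at ND-20, ND-24 or ND-51.

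A wider form was searched as TTNNNNAA with inner bases that alternate between purine and pyrimidine, which gives the 10 words TTACACAA, TTACATAA, TTACGCAA, TTACGTAA, TTATACAA, TTATATAA, TTATGCAA, TTGCACAA, TTGCGCAA and TTGTACAA and so includes the PAR bZIP site. It lay at 22 of 33 summits (66.7%), against 28.8% of all bound genes, 47.7% of those in the strongest 10% and 7.58% of the complex I windows 300 bp away. In complexes III to V it lay at 24 of 32 genes, and in complex II at 4 of 4. The palindrome TTATATAA, also one of the 10, was at 5 genes (15.2%, against 6.39%), among them ND-B22, ND-B17.2 and ND-B14.5A. TTACGCAA was at ND-13A and ND-SGDH.

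Several windows without the wider form held a mixed word, TTATGTCA or TTACGTCA (TGACATAA or TGACGTAA on the opposite strand), which joins an arm of the PAR bZIP site to an arm of the cyclic AMP response element, the site of CREB-type bZIP factors. This pair was chosen after the sequences were seen. It lay at 7 of 33 genes (21.2%), against 2.96% of all bound genes and 6.35% of those in the strongest 10%. Among complexes III to V it lay at 1 of 32, and among bound mitochondrial ribosomal protein genes at 7 of 72 (9.72%). It was present at ND-15, ND-13B, ND-B14.5B, ND-B14 and ND-B15 in windows without the wider form, and at ND-23 and ND-PDSW beside it. With the wider form it brought the count to 27 of 33 genes (81.8%), against 31.5% of all bound genes and 53.4% of all genes in the strongest 10%. The share was 78.1% in complexes III to V, and 68.4% among genes of the strongest 10% whose own TSS was the nearest and whose summit lay downstream. The genes with none of these words were ND-20, ND-24, ND-42, ND-51, ND-ASHI and ND-B8.

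**Figure D4:**
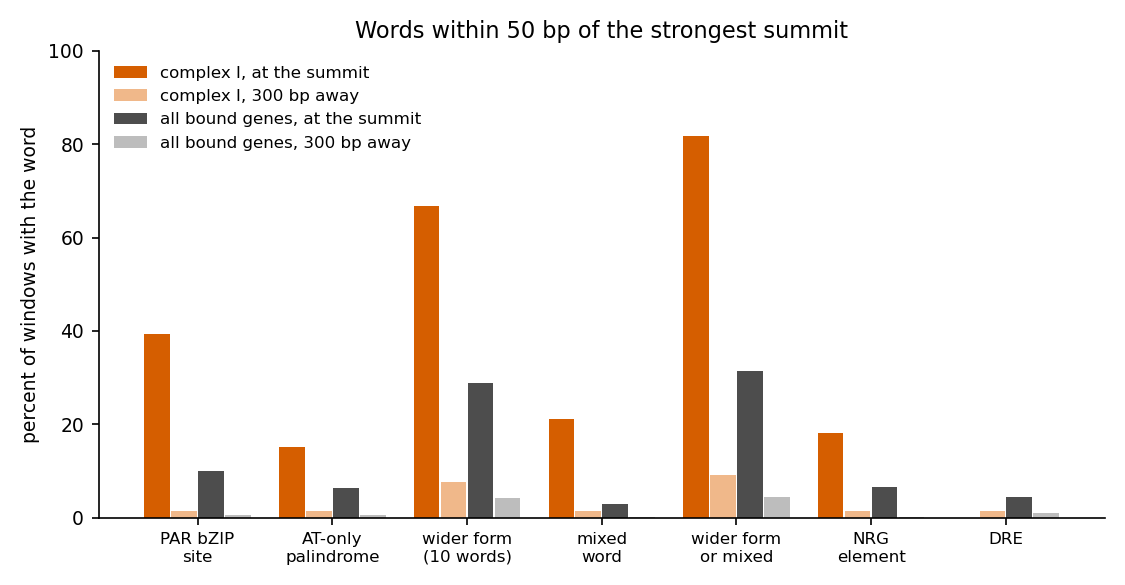
Percent of windows (50 bp to each side of the centre) that hold each word or form, at the strongest summit and 300 bp to either side, for the 33 bound complex I genes (orange) and all 6148 bound genes (grey). The wider form is at 66.7% of complex I summits and 7.58% of the windows 300 bp away. With the mixed word, which was chosen after these sequences were seen, the shares are 81.8% and 9.09%.

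The nuclear respiratory gene element, a longer palindrome that overlaps the wider form and is known from Drosophila genes of oxidative phosphorylation, was at 6 of 33 genes (18.2%), namely ND-19, ND-39, ND-B17, ND-B22, ND-MNLL and ND-PDSW. This compared with 6.57% of all bound genes and 15 of 32 genes of complexes III to V. The DNA replication-related element TATCGATA, a common promoter element of housekeeping genes in flies, was at 0 of 33 complex I summits and 4.41% of all bound genes. The genes themselves did not lack this element. It was at 5 of 40 complex I genes (12.5%) from 250 bp before to 50 bp after the TSS. The share of all protein-coding genes there was 9.24%. From 50 to 350 bp past the TSS it was at 2 of the 40, against 0.681%. These differences were not tested.

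The words, like the summits, were downstream of the TSS. Of the 27 genes with a word, the one nearest to the summit lay downstream of the TSS at 25, with a median of 206 bp past it, and 17 of them lay in the first intron and 7 in the first exon. Since words were searched only within 50 bp of a summit, their place followed that of the summits. The intronic words lay 1 to 116 bp past the first exon with a median of 39 bp. At ND-23 the word was 83 bp past the exon, at ND-49 it was 20 bp past it, and at ND-B17.2 it was 18 bp past it. At ND-75 the summit was 17 bp before the nearest TSS and the word 6 bp after it.

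Words were also counted at fixed distances from 1 TSS per gene, the one with the most transcripts. The windows were set with the summit positions known, and the mixed word, picked from the sequences of these same genes, was left out, so the counts are a description and no independent support. In the window 50 to 350 bp past the TSS, the wider form was at 21 of 40 complex I genes (52.5%), against 1529 of 13945 genes, and the PAR bZIP site at 10 of the 40, against 2.45% of all genes. In the promoter window, 250 bp before to 50 bp after the TSS, the wider form was at 10 of 40 complex I genes and 14.4% of all genes. In the downstream window it was at 0 of the 6 paralogues and at 21 of the 34 other complex I genes. A word in the reference sequence does not show that Pdp1 or another factor sits on it.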

How the data were processed

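Pdp1 ChIP-seq in 3 biological replicates of 1 group was analysed from dm6 peak lists. Per the deposited file records, the authors called peaks for each replicate and for the pooled replicates against a control alignment, as relaxed lists of 30000 lines, and derived an optimal list of 13583 lines. The aligner and peak caller, with versions, were not given in the sources used here. A signal deposited for a peak is a value of the authors whose scale differed between lists, so it was ranked within a list. Read counts were not used here, so depth is unknown and no counting interval is given.

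Gene models were from Ensembl release 115 (BDGP 6.54) and sequence from the Release 6 genome of RefSeq. Bound genes were those with at least 1 optimal summit no farther than 1 kb from a TSS, and the strongest such summit was described. Placement was read only from the transcripts that start at the TSS nearest to the summit, by their first exon and first intron. A summit in the first exon of any of these counted as exonic before intronic. Exons of transcripts from other TSSs were not checked. Position, rank, replicate match (200 bp) and words (50 bp) were computed in Python 3.11.15 with pandas 2.3.3 and numpy 2.4.6, and checked on simulated data. The members and lists were chosen with earlier results of these data known. Values in every replicate are given for the core genes, the 6 highest signals, the genes nearest the 1 kb limit, and the lowest and highest spread of rank. No p-value was computed, since there is 1 group. The alternatives tried were other TSS windows, list cut-offs, matching distances, word windows and leaving out each replicate. The dm3 lists, control libraries and signal tracks were not used here.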

Additional observations from a re-analysis of the deposited data

How the results depend on the processing

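The count of complex I genes with a word was the value that depended on a setting. With words required within 25 bp of the summit, the PAR bZIP site was at 6 genes in place of 13 and the wider form at 12 in place of 22, since the nearest word lay a median of 20 bp from the summit. The other 62 of 64 recomputed values stayed within 1.5 times the reported count. Bound complex I genes numbered 31 to 34 over all settings, and 33 without replicate 1, 2 or 3. The optimal list was made from all 3 replicates and was not called again for these settings. Its summits and signals therefore still held the replicate left out, and the median rank stayed at 597, so these counts are no independent check. Genes found in all replicates numbered 30 to 33. Bound protein-coding genes numbered 4142 to 7686. Counts from each replicate list alone were added after the data were seen. No paired analysis was possible because the series holds 1 group. Without read counts, the precision of a single summit cannot be given.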

Other observations

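At 22 of the 33 bound genes (66.7%) the strongest summit also lay within 1 kb of the TSS of another protein-coding gene, against 54.1% of all bound genes and 59.8% of those in the strongest 10%. At 18 of the 33 such a neighbour was divergent, with its start facing away. The share with a divergent neighbour over all bound genes is not given here, so this count has no background beside it. At 32 of the 33 the complex I TSS was nonetheless the nearest, ties included, against 73.3% of all bound genes. A tie was at ND-MNLL, whose nearest TSS was also that of CG45089 on the same strand, 50 bp from the summit. The exception among the 33 was ND-ASHI, whose summit was 349 bp from its own TSS and 345 bp from that of Fum1, which encodes fumarase of the citric acid cycle. Other mitochondrial neighbours were kdn, which encodes citrate synthase, 303 bp from the summit of ND-B16.6, and Cchl, which encodes a haem lyase for cytochrome c, 438 bp from the summit of ND-42.

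The word nearest to the summit lay on the side farther into the gene. On the strand of the gene it was downstream of the summit at 22 of 27 complex I genes (81.5%), by a median of 19 bp over all 27. The share was 55.1% over bound genes whose own TSS was the nearest and 68.2% over those of them in the strongest 10% with a downstream summit. Taken from the replicate summits, the complex I share was 75.9%, 85.7% and 78.3%, with a median offset of 16.7 ± 1.53 bp (SD, n = 3). For the genes of the strongest 10% with their own TSS nearest and a downstream summit, it was 70.0%, 72.4% and 68.9%. Their median offsets were 13, 12 and 14 bp. Of the matched complex I genes, 75.8% ± 10.7 had such a word by their replicate summit (SD, n = 3 replicates). Among those same genes of the strongest 10% the share with a word was 69.7%, 61.9% and 64.4% in replicates 1, 2 and 3. The words counted here include the mixed word, which was picked from the sequences of these same complex I genes. The replicate summits were those matched within 200 bp of the optimal summits. These shares and offsets are therefore a description and no independent support. The reason for the offset was not tested.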
